A study of Mus musculus with 2 samples.

Results

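Long intergenic noncoding RNA (lincRNA) regions were read in skeletal muscle on 2 one-colour arrays, with 1 row per region named by the array design. Members were all non-control probes whose name, accession or description in the scanner files contained the word lincRNA. This gave 16251 probes in 4622 named regions, of 55681 probes in all. An outlier spot removed 1 probe and with it 1 region, which left 16250 probes in 4621 regions, 29.2% of the 55680 usable probes. Both arrays carried total RNA of male CD2F1/Slc mice aged 11 weeks. The control array held muscle after an injection of PBS, and the C26 array held muscle after subcutaneous implantation of 1000000 C26 cells, a colon carcinoma line used to model cancer cachexia, in 100 µL. The labels name no genetic change, and the sources used here do not give the muscle, any pooling of animals or the time after implantation. There was 1 array per group, so no p-value is given, and every difference below is one between these arrays.

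A lincRNA is transcribed from its own unit between protein-coding genes, is often spliced and polyadenylated like an mRNA, and has no long reading frame. Many lincRNA units were first predicted as stretches of chromatin that carry the histone marks of an active promoter followed by those of transcription, and such stretches need not mark the strand or the exons exactly. As a class they are less abundant than mRNAs and more restricted to particular tissues. A few have known roles in muscle or in the nucleus at large, such as H19, an imprinted RNA abundant in developing muscle, NEAT1, which builds the nuclear bodies called paraspeckles, and NEAT2 (also called Malat1), a resident of nuclear speckles.

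Regions are named by the array design with chromosome, start, end and strand (F, forward; R, reverse) on mm9, and 12 of them carry a name of their own. The regions spanned a median of 10676 bases, from 62 to 7128487, and 2323 of the usable regions were forward and 2298 reverse. Each had 1 to 10 probes of 60 bases; 3 probes were the most frequent number (1811 regions), and 689 regions had 1. Of the 16132 probes with a position, all matched the strand of their region and 16124 lay inside it, while 118 had no position. A coding probe, that is one with a RefSeq NM_ accession, lay inside 244 regions (5.28%), on the same strand in 138 of them. Not every region therefore lay clear of coding probes.

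Several probe sequences carry what follows and are printed first, each 5′ to 3′ as deposited. The highest ratio of all regions was read by 4 different probes, which all lay well above background on both arrays, and none of them holds AATAAA or ATTAAA, the letters of the usual polyadenylation signals. They are printed in lower case.
chr5:107503800-107515575_R probe 1: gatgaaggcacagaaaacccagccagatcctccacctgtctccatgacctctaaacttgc
chr5:107503800-107515575_R probe 2: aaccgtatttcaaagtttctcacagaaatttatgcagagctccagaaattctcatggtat
chr5:107503800-107515575_R probe 3: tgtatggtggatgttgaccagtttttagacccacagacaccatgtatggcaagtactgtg
chr5:107503800-107515575_R probe 4: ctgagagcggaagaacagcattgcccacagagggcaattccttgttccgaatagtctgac
The probes of the third lowest region, which were all lower on the C26 array, hold neither motif.
chr2:113880070-113887230_F probe 1: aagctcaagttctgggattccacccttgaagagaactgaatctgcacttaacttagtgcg
chr2:113880070-113887230_F probe 2: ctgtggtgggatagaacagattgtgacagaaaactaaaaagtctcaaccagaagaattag
chr2:113880070-113887230_F probe 3: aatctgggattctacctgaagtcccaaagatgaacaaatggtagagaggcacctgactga
The following probes of 1 region overlap by 39 bases, shown in capitals, and gave like ratios.
chr1:107866276-107887102_R probe 1: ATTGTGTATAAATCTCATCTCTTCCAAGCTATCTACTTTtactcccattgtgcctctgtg
chr1:107866276-107887102_R probe 2: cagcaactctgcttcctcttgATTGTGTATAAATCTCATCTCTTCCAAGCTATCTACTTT
In contrast, the next probes overlap by 57 bases, shown in capitals, and gave the widest spread of ratios of any region.
chrX:98658045-98677545_F probe 1: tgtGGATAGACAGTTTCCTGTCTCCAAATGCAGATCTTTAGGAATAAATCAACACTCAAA
chrX:98658045-98677545_F probe 2: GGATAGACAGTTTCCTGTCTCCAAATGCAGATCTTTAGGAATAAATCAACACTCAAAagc
The lowest ratio of all regions was read by the first of a pair at the same position that differ in 1 base, in capitals (C25G, counted from 1 at the 5′ end).
chr17:84044664-84072489_R probe 1: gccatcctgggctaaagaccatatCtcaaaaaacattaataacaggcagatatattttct
chr17:84044664-84072489_R probe 2: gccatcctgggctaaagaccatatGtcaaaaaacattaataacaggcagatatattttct

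Across the arrays, most members were dim. In 2401 of 4621 regions the scanner called the brightest probe well above background on both arrays, here called measured. This is 52.0% (exact binomial 95% interval 50.5% to 53.4%, for counting error only). By brightest probe, 56.6% of all 34796 names on the array, these regions included, and 66.2% of 19965 coding names were measured. The number of probes per name was not matched. Counted by probe, 28.2% of lincRNA probes were measured (27.5% to 28.9%), against 64.4% of 26536 coding probes (63.86% to 65.01%). The median signal of measured lincRNA probes was 82.9 for the control and 79.9 for the C26 array, and that of measured coding probes 440 and 430, in the scanner's processed intensity. Over the brightest probe of each measured region it was 109 and 105. A probe above background on both arrays, not always the brightest, was present in 2413 regions. Another 313 regions had a probe above background only on the C26 array and 77 only on the control array. A further 18 were above background on each array through different probes, and 1800 had no probe above background on either array. The lean towards the C26 array was shared by coding probes, 985 of which were above background there alone, against 235 on the control side. Among all probes that the scanner called well above background, the lowest signal was 18.5 for the control and 14.1 for the C26 array, so the arrays did not have the same floor.

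The share of regions measured was higher in regions with more probes, of which the brightest stands for the region; what else differs with the number of probes was not tested. It was 31.3% of regions with 1 probe, 48.0% of those with 3, 62.4% of those with 5 and 85.7% of the 147 with 10. Forward and reverse probes were alike, at 27.2% and 29.2%. By distance from the 3′ end of its region, 26.7% of probes were measured within 300 bases of that end (25.4% to 28.1%), 30.8% at 5000 to 20000 bases (29.5% to 32.2%) and 27.3% further away. Regions with a coding probe inside on the same strand were measured in 69.6% of cases (96 of 138), against 51.4% of the others, and they were also longer, with a median of 20180 against 10433 bases.

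The share of probes above background was higher the more G and C they held. It was 19.4% of lincRNA probes with at most 35% GC, 24.1% from 35% to 45%, 40.9% from 45% to 55%, 57.2% from 55% to 65% and 74.6% of the 232 probes over 65%. For coding probes the same classes ran from 62.9% to 84.0%, so the lincRNA share lay well below the coding share at low GC, and their intervals overlapped over 65% GC (68.5% to 80.0% for lincRNA probes, 70.9% to 92.8% for 50 coding probes). The brightest region, chr14:78924115-78938125_F, shows the kind of probe at the top of that range, and runs of 6 or more G or C are in capitals.
chr14:78924115-78938125_F probe 1: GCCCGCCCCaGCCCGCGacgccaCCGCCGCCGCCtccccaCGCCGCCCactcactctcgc
chr14:78924115-78938125_F probe 2: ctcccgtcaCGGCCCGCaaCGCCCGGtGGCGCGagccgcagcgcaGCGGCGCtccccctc
Its brightest probe has 83.3% GC and read 124817 on the control and 119403 on the C26 array. The probe just beside it, of 81.7% GC, read 50.1 and 60.2. What part GC content has in the signal of such probes was not tested.

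**Figure D1:**
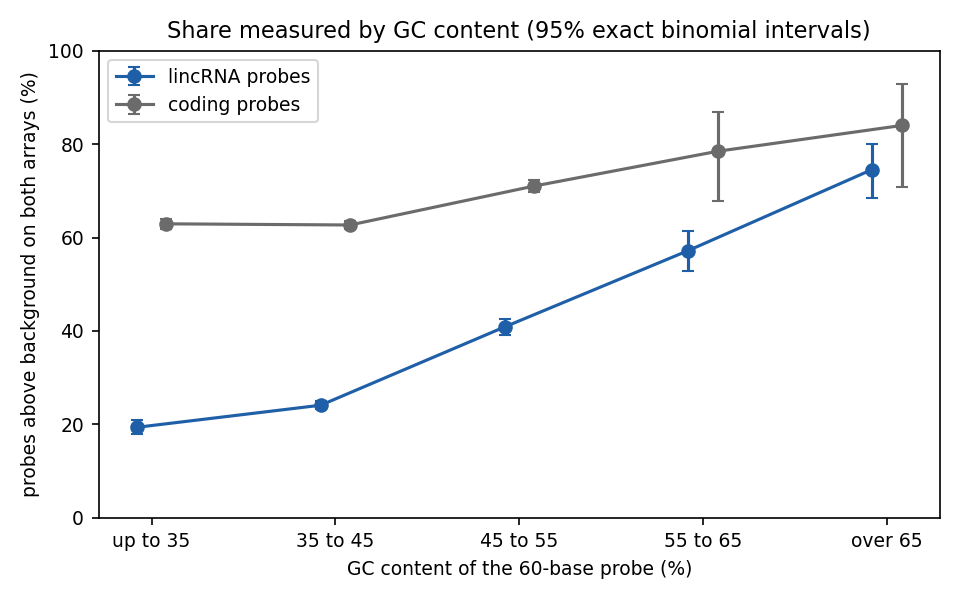
Share of probes well above background on both arrays (vertical axis, %) by GC content of the probe (horizontal axis, %), for lincRNA probes (blue) and coding probes (grey), with exact binomial 95% intervals. The lincRNA share rises from 19.4% to 74.6%, and the coding share from 62.9% to 84.0%.

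The 6 brightest regions were nearly equal on both arrays. After chr14:78924115-78938125_F, at a log2 ratio of 0.01, came chr6:83368261-83407280_F, with 114093 on the control and 113411 on the C26 array (log2 ratio 0.06), and chr17:17481706-17482457_R, with 108034 and 116459 (0.18). Next were chr12:73838608-73862621_R (0.02), chr6:116092274-116144199_F (-0.05) and chrX:138967807-138968413_R (0.04). Each ratio was smaller than its scanner error of 0.20, which is the error the scanner software gives for the spot, carried to the log2 scale. In 4 of the 6 the brightest probe had 78.3% to 88.3% GC; those on chr17 and chrX had 50% and 38.3%.

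The polyadenylation letters were rare in lincRNA probes. AATAAA stood in 3.92% of them and in 13.2% of coding probes, and its reverse complement TTTATT in 3.03% and 4.28% (both searched in the printed strand, overlaps counted once per probe). Among measured probes the AATAAA shares were 4.17% and 15.0%. ATTAAA stood in 2.47% of lincRNA and 4.48% of coding probes. This is a count of letters in 60-base windows and says nothing of where transcripts end.

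After each array was scaled to its 75th percentile, 21 measured regions stood at least 2-fold higher on the C26 array and 19 stood 2-fold lower or more. These are 0.875% and 0.791% of the 2401, 1.67% in all, where 1.25% and 1.15% of all 19682 measured names on the array passed the same sizes, 2.4% in all. By probe, 39 of 4584 measured lincRNA probes were past 2-fold upward and 46 downward, 1.85% in all, beside 1.16% and 1.14% of all 26781 measured probes, 2.3% in all. With normexp background correction the split of regions was 5 higher and 3 lower. The median log2 ratio of the regions was 0.02 (quartiles -0.15 and 0.19), that of all measured names 0.04, and 2227 regions (92.8%) lay within 1.5-fold. The median lay between -0.04 and 0.01 under the 6 other scalings, so its sign turned with the scaling. Members were dimmer than coding probes, so coding probes were weighted to the signal of the regions over 10 bins. Past 2-fold in either direction were 1.67% of the regions (exact interval 1.19% to 2.26%) and 3.08% of coding probes of like signal, 1.41 percentage points less for the regions. In each of the 10 bins the share of regions was the lower. Its difference from coding probes was not tested, as there is 1 array per group.

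**Figure D2:**
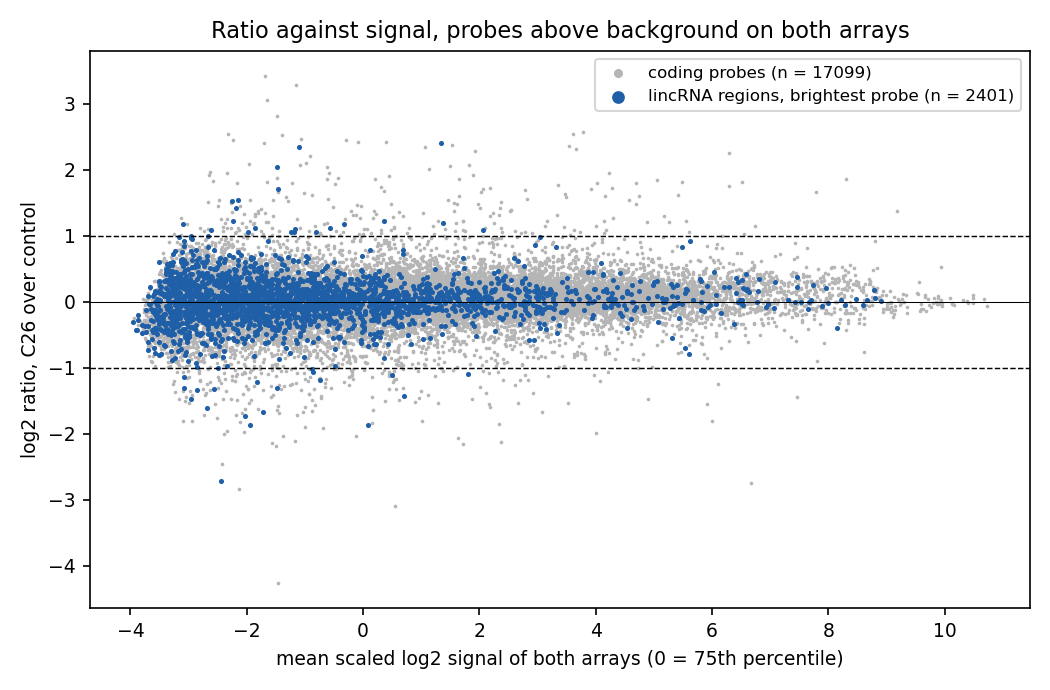
log2 ratio of C26 over control (vertical axis) against the mean scaled log2 signal of both arrays (horizontal axis) for 2401 measured lincRNA regions (blue) and 17099 measured coding probes (grey); dashed lines mark 2-fold. Most regions lie at low signal, and 40 lie on or beyond the dashed lines.

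**Figure D3:**
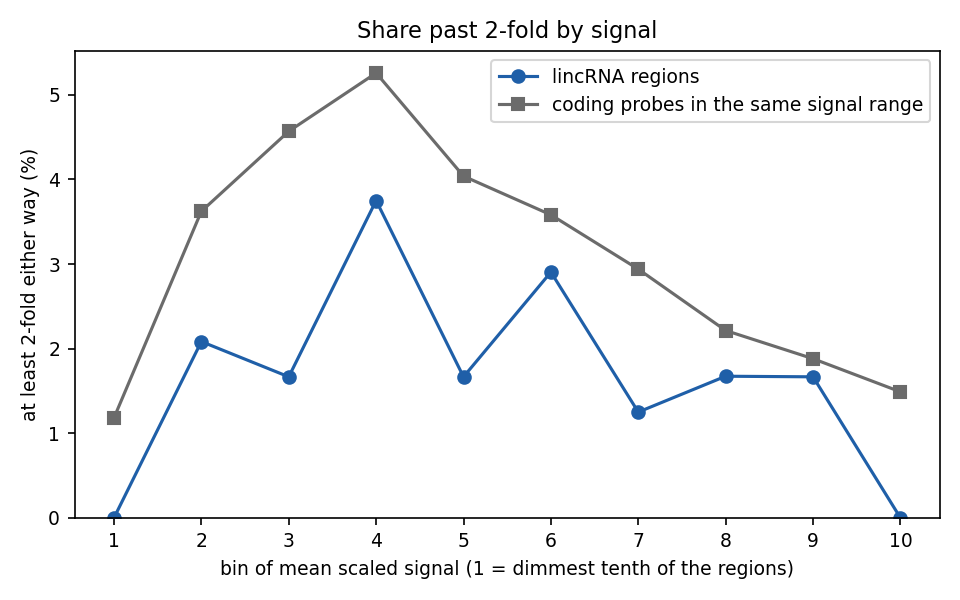
Share at least 2-fold different in either direction (vertical axis, %) in 10 bins of signal, from the dimmest to the brightest regions (horizontal axis), for lincRNA regions (blue) and coding probes in the same range (grey). Regions run from 0% in the dimmest and the brightest bin to 3.75% in the fourth, and coding probes from 1.18% to 5.26%.

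Markers of the tissue and of other cells were read beside these results. All 8 muscle markers, among them Ckm and Acta1, were bright on both arrays at 4830 or more, and their ratios lay between -0.32 and 0.16. Of 8 erythroid markers, 6 were measured and 5 of these were at least 2-fold higher on the C26 array, with a summed signal of 387136 on the control and 782040 on the C26 array. All 6 fibroblast markers were below 0, 2 of them at least 2-fold lower, with sums of 151132 and 94263. Of 6 neutrophil markers, 4 were measured and 2 were at least 2-fold higher, although their sum was 33487 on the control and 27747 on the C26 array. The 5 matched macrophage markers were all below 0, from -1.35 to -0.12 with a median of -0.17, and 1 of them was at least 2-fold lower. The 5 endothelial markers were all above 0, or 3 of them under median scaling, loess, quantile normalization, the deposited table and a 75th percentile taken over measured probes alone. In whole muscle, fewer cells of a type and less RNA per cell cannot be told apart, and the part of these cells in any lincRNA ratio below was not tested.

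How closely probes repeat each other could be read from the arrays themselves. The sequence of 79 lincRNA probes was printed again on the array under another name. In 10 of these 79 pairs the other copy was a coding probe, so the member shares the sequence of a coding gene's probe. Both copies were measured in 36 pairs, and the ratios of the copies differed by a median of 0.08, with a standard deviation of 0.16 and a largest difference of 0.53 (Pearson r 0.91, Spearman rho 0.87 over these pairs, which share their sequence and both arrays). Both copies got the same call, measured or not, in 74 of 79 pairs. From these differences, the standard deviation of a single copy was 0.12. Different probes of 1 region scattered more: over the 1124 regions with at least 2 measured probes, the median standard deviation between probes was 0.18 (quartiles 0.10 and 0.30). By the median of their measured probes, 5 of these 1124 regions passed 2-fold upward and 6 downward. The same share was not taken over all names.

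The 40 regions past 2-fold were picked by the ratio of their brightest probe, so their other probes describe them and give no test. Of the 40, 26 had 1 measured probe. In the other 14, the measured probes had the same sign in 9 and all passed 2-fold in 2, both of them higher on the C26 array. For coding names past 2-fold with at least 2 measured probes, all 49 had probes of 1 sign, and in 28 all probes passed 2-fold. This comparison was not matched on signal. The median control signal was 546 over all measured coding names and 109 over all measured regions.

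**Figure D4:**
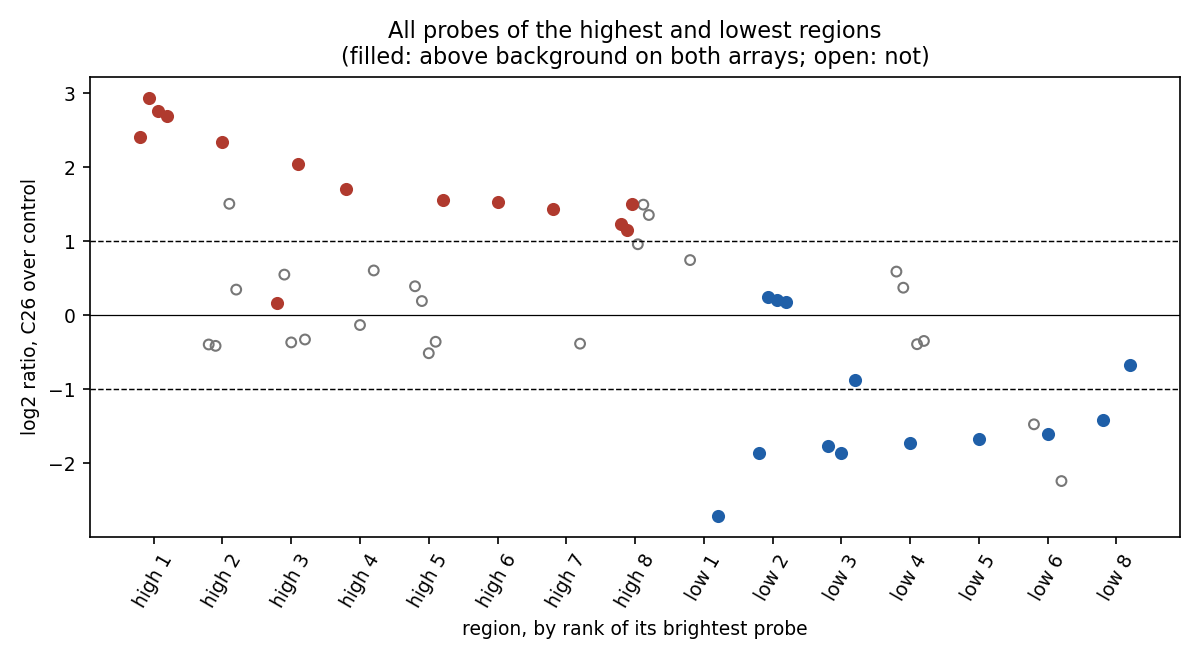
log2 ratio of C26 over control (vertical axis) of every probe in the 8 highest regions (red) and 7 of the 8 lowest (blue), in order of rank (horizontal axis); filled points are above background on both arrays, open points are not, and dashed lines mark 2-fold. In the first and the eighth highest regions, filled points of several probes lie together above 2-fold, whereas in the second lowest 1 filled point lies apart from 3 others.

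The highest region, chr5:107503800-107515575_R, was the clearest. Its brightest probe, at chr5:107513894-107513953, read 288 on the control and 1454 on the C26 array, and the other 3 read 110 and 800, 39.4 and 241, and 21.3 and 137. All 4 probes were far higher on the C26 array. The log2 ratios were 2.41 (scanner error 0.21), 2.94, 2.68 and 2.76, a mean of 2.70 with a standard deviation of 0.22 between probes. Its nearest measured coding probe, on the same strand at 21865 bases, was that of Tgfbr3, a co-receptor for TGF-beta ligands, at 0.39 (error 0.20). The region stood at 2.13 with normexp and at 2.35 to 2.37 in the other alternatives of scaling.

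The other region with all measured probes past 2-fold was chr1:107866276-107887102_R, the eighth highest, which was dim. Its overlapping probes printed above read 36.5 and 81.2, and 35.7 and 75.1, on the control and C26 arrays, and another read 29.2 and 78.4. Their log2 ratios were 1.22 (error 0.28), 1.15 and 1.499. The remaining 3 of its 6 probes passed background only on the C26 array, with ratios above 0 as well. With normexp the brightest stood at 0.60. The nearest coding probe, of Zcchc2 on the opposite strand at 60135 bases, had 0.55.

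The ninth highest region, chr16:23992037-24001037_F, is given here although it lies outside the named ranks and was chosen after its values were seen. Of its 7 probes, 6 were measured, and the ratios of these were 0.63, 1.22, 1.41, 1.48, 1.57 and 1.69, a median of 1.44. The brightest 3 are printed for their position side by side.
chr16:23992037-24001037_F probe 1: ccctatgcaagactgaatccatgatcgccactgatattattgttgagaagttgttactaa
chr16:23992037-24001037_F probe 2: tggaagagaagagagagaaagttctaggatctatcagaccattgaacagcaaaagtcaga
chr16:23992037-24001037_F probe 3: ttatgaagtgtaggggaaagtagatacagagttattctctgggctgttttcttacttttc
The first read 220 on the control and 487 on the C26 array, the second 256 and 376, and the third 186 and 469. All were higher on the C26 array, and the second, with the smallest ratio, lies next to the first. The nearest coding probe was that of Bcl6, a transcriptional repressor, on the opposite strand at 30007 bases, which was bright and stood at -0.27 (error 0.20).

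The remaining 6 of the 8 highest rested on 1 measured probe, or on probes that differed. In chr5:122982442-123000053_F, 1 of 5 probes was measured, with 54.1 on the control and 261 on the C26 array, a log2 ratio of 2.34 (error 0.24). A neighbouring probe was above background on the C26 array alone, at 7.38 and 19.9, and the 3 others read under 5 on both arrays. In chr8:106037800-106070025_F, 1 probe read 46.5 and 183, a ratio of 2.05, and the other measured probe 23.0 and 24.5, a ratio of 0.16. The region chr14:8576576-8624104_R read 52.5 and 162, a ratio of 1.70 from 1 of 3 probes. In chr8:94841965-94881130_R the values were 34.5 and 96.2, a ratio of 1.55 from 1 of 5 probes.

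The region chr3:115344814-115406214_R has 1 probe, which read 32.5 on the control and 89.0 on the C26 array, a log2 ratio of 1.53 (error 0.30). Its nearest coding probe, on the same strand at 39224 bases, was that of S1pr1, a sphingosine phosphate receptor of endothelium, at 0.99. The region chr5:14943275-14944205_F read 35.1 and 89.8, a ratio of 1.43 from 1 of 2 probes. With normexp, 4 of these 6 were under 2-fold and lay between 0.62 and 0.95, while those at 2.34 and 2.05 stood at 1.52 and 1.17.

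Among the lowest regions, chr2:113880070-113887230_F had the most support. Its 3 probes read 131 and 34.2, 88.0 and 45.7, and 57.8 and 16.1 on the control and C26 arrays, so each was lower on the C26 array. The log2 ratios were -1.86 (error 0.25), -0.87 and -1.77, a mean of -1.50 with a standard deviation of 0.55 between probes. With normexp the brightest stood at -0.91. The nearest coding probe, on the opposite strand at 9852 bases, was that of Actc1, the cardiac alpha-actin that muscle also makes during development and repair, and it stood at -0.85. In chr10:62267317-62269871_R the measured probe read 71.0 and 22.2, a ratio of -1.61 (error 0.29), and the other 2 probes, which were not above background on both arrays, stood at -1.48 and -2.24. With normexp the measured probe stood at -0.64. On the same strand at 6727 bases lay a probe of Tet1, an enzyme that oxidises methylated cytosine, at -1.32. In chr1:93812836-93816128_F the brighter probe read 697 and 247, a ratio of -1.42 (error 0.21), and the dimmer one 44.1 and 26.3, a ratio of -0.67; a probe of Hdac4, a histone deacetylase that responds to denervation, lay on the opposite strand at 14131 bases and stood at 0.95.

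The lowest ratio, -2.71 (error 0.35) in chr17:84044664-84072489_R, came from the first probe of the pair that differ at C25G. It read 123 on the control and 17.9 on the C26 array. Its partner, at the same position, read 9.46 and 15.1 and was not above background on both arrays. With normexp the ratio was -0.9997, just short of 2-fold lower.

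The second lowest, chr3:40439525-40509975_F, has 4 measured probes side by side. The brightest read 532 on the control and 139 on the C26 array, a log2 ratio of -1.87 (error 0.21), and the other 3 stood at 0.18, 0.20 and 0.24. The deviating probe and the one that follows it directly are printed for comparison.
chr3:40439525-40509975_F probe 1: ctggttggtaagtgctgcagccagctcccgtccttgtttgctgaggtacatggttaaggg
chr3:40439525-40509975_F probe 4: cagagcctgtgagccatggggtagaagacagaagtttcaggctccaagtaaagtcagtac
The second of these, listed as probe 4 by brightness, read 26.3 and 29.5. The region's median over probes was 0.19, against -1.87 by the brightest probe, so whether it counts as lower depends on the probe taken. Inside the region, on the same strand and 201 bases from the brightest probe, lay a coding probe of Intu, a planar cell polarity protein, at 0.06.

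The other reported regions of the 8 lowest had 1 measured probe each. In chr10:6480075-6603900_F it read 117 and 33.6 (log2 ratio -1.73), with 4 further probes not measured, and in chr5:113771679-113771745_F, the only probe of that region, 142 and 42.2 (-1.68). With normexp they stood at -0.81 and -0.88.

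Probes of 1 region also disagreed at brighter spots. In chrX:98658045-98677545_F, the pair that overlap by 57 bases read 131 and 2548 (log2 ratio 4.36, the highest of all lincRNA probes) and 3613 and 3606 (0.07) on the control and C26 arrays. The brightest probe of that region read 21367 and 22324, a ratio of 0.14. In chr11:117835849-117842574_R the brightest of 4 measured probes read 586 and 513 (-0.12), whereas another, without a position, read 152 and 22.5 (-2.68); the nearest coding probe, on the same strand at 8560 bases, was that of Socs3, an inhibitor of cytokine signalling, at 0.38. In chrX:102567595-102589870_F the measured probes stood at 0.14 and -2.35. The region on the other strand of that interval is among those above background on the C26 array alone.

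Regions above background on 1 array alone give only a bound, taken from the lowest signal well above background on the dim array. Where the probe's own signal on the dim array lay above that floor, its own signal was used, and the bound is then the plain ratio. Of the 313 on the C26 array, 18 (5.75%) were at least 2-fold higher there by their bound, where 6.92% of all 1459 such names were. Of the 77 on the control array, 35 (45.5%) were at least 2-fold lower on the C26 array, where 44.9% of all 363 such names were. Both shares lie near those of the whole array. In 5 of the 18, at least 2 probes were above background on the C26 array, and in 0 of the 35 were at least 2 above on the control array. These counts take the scanner's call alone, whatever the ratio of a probe, and do not show that probes agree. The floor was also lower on the C26 array, at 14.1 against 18.5. The same counts were not taken over all names, so nothing is read from their difference.

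The largest bound upward was that of chr5:54053328-54053870_F, at least 8.87-fold, with 8.85 on the control and 156 on the C26 array and 2 of 3 probes above background there. It was followed by chrX:102567595-102589870_R, with 4.09 and 128 (at least 7.30-fold, 2 of 5 probes), and chr15:90156889-90184564_R, with 10.5 and 121 (at least 6.89-fold, 2 of 3 probes). The other probe above background on the C26 array read 17.1 on the control and 17.8 on the C26 array in the region on chr5 (log2 ratio 0.13). In that on chr15 it read 22.3 and 23.0 (0.12), so both of these bounds rest on 1 probe. In that on chrX it read 4.96 and 25.3 (2.43). The next were chr7:69008096-69070309_R at 6.49-fold or more and chr14:33115110-33131171_F at 5.04-fold, each by 1 of 3 probes. The latter read 20.7 on the control array, above the floor, so its value is the plain ratio. The nearest measured coding probes of these 5 lay between -0.32 (Ndn) and 0.21 (Alg10b), so none was near 2-fold. A probe of Rbpj, the DNA-binding partner of Notch, lay 4827 bases from the first on the same strand and stood at 0.05.

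Downward, the largest bound was that of chr11:18753941-18760118_R, at least 16.97-fold lower, with 252 on the control and 2.79 on the C26 array. Next were chrX:20376867-20377837_F, with 210 and 13.2 (at least 14.1-fold), and chr16:45016828-45069177_F, with 165 and 12.1 (at least 11.1-fold). Then came chr6:54592523-54593344_R and chr15:92174226-92201201_R, at least 10.9-fold and 10.5-fold lower. All of these 5 rested on 1 probe, while the other probes of the same region were not above background on either array. Their nearest coding probes lay between -0.36 (Ccdc80) and 0.14 (Araf); Meis1, a homeobox factor, was nearest to the first, at -0.28 on the same strand.

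The 12 regions with names of their own include RNAs studied elsewhere. The brightest probes of H19, NEAT1 and NEAT2 are printed, since these are the transcripts a reader can look up; none holds AATAAA or ATTAAA.
H19: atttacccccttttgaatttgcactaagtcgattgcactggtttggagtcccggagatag
NEAT1: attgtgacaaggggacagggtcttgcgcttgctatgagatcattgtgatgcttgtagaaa
NEAT2: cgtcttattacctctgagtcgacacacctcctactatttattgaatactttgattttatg
H19 (chr7:149761435-149764019, reverse) was measured by all 5 probes. The brightest read 14668 on the control and 19129 on the C26 array, and the dimmest 2630 and 3458. All 5 were slightly higher on the C26 array, here and under each of the 6 other scalings, with log2 ratios of 0.32 to 0.47, a mean of 0.40 and a standard deviation of 0.06. A RefSeq probe of H19, no member here, read 33320 and 40839 and stood at 0.37.

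NEAT1 (chr19:5842306-5845476, reverse) was slightly lower on the C26 array by all 5 probes, here and under each of the 6 other scalings. The brightest read 24491 on the control and 18380 on the C26 array, and the ratios ran from -0.34 to -0.30, with a standard deviation of 0.02 between probes. The RefSeq probe of Neat1 stood at -0.37. NEAT2 (chr19:5795689-5802671, reverse) read 775 and 770 with its brightest probe, and its 3 probes gave 0.06 to 0.20. That brightest probe has the same sequence as the RefSeq probe of Malat1, which stood at 0.22. Each shift is under 1.5-fold, and without further animals the spread that they should be read against is unknown.

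TUG1, which takes part in repression through Polycomb complexes, was measured by all 5 probes at -0.15 to -0.09, with 533 and 455 for the brightest. The RefSeq probes of Tug1 stood at -0.15, -0.05 and 0.32. HOTAIR, transcribed within the HoxC cluster, read 153 and 140, and its 5 probes gave -0.44 to -0.05. The region named KCNQ1ot1 was measured by 2 of 5 probes, at 0.43 and -0.14; it is drawn on the forward strand, whereas the RefSeq probes of Kcnq1ot1, an imprinted antisense RNA, lie on the reverse strand and gave -0.37 and -0.30. NRON, a repressor of the factor NFAT, was measured by 2 of 5 probes, at 0.42 and -0.22, and PINC by 1 of 5, at -0.23. BRN1-A, lincP21, XIST and TSIX had no probe above background. XIST coats the inactive X chromosome of females and these mice were male.

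RNAs listed as long noncoding, outside the members, were read for scale. They were listed by symbol, and whether any holds a reading frame was not tested. Among them Sra1, at 0.04, was read by a probe with a RefSeq NM_ accession, a coding probe as defined above. Of a list of 46 known long noncoding RNAs, 28 were found by symbol and 24 of these were measured, with a median log2 ratio of 0.20 (0.14 to 0.16 under 5 other scalings and 0.13 with normexp); 15 stood above 0 and 9 below, or 13 to 14 above 0 under the other scalings. The 3 highest were Rmrp, the RNA of a ribonuclease, at 1.13 (error 0.32), Peg13 at 0.61 and Gas5, a host of small nucleolar RNAs, at 0.59, although other Gas5 probes reached down to -0.21. The 3 lowest were Mirg at -0.99 and Meg3 at -0.66, both from the imprinted Dlk1 domain, and Kcnq1ot1 at -0.37. Rmrp alone passed 2-fold; with normexp it did not, and Mirg passed it downward under 3 other scalings. The brightest were H19, Neat1 and 2310015B20Rik, which stood at 0.31.

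Members within the Dlk1 domain, chosen after the values of Meg3 and Mirg were seen, were read beside these genes. The brightest probes of 14 regions lay between the outermost probes of Meg3 and Mirg (chr12:110782745-110987628). On the forward strand, which is that of Meg3 and Mirg, 7 of 10 regions were measured and all 7 had ratios below 0 (5 of them with normexp), from -0.42 to -0.0017 with a median of -0.22. The lowest of them, chr12:110842154-110883594_F, read 110 on the control and 78.4 on the C26 array. Of all 2401 measured regions, 1122 stood below 0. The 7 are not separate units, as chr12:110944403-110988678_F spans chr12:110967974-110969051_F and chr12:110973190-110987668_F, and chr12:110842154-110883594_F overlaps chr12:110842149-110845695_F. The ratios nearest 0, -0.0017, -0.04 and -0.11, were smaller than their scanner errors of 0.33, 0.20 and 0.30. On the reverse strand 4 of 4 were measured, 1 of them below 0 (up to 3 under other scalings), at a median of 0.02. Of these 11 measured regions, 0 passed 2-fold. Of the 3 others, all forward, chr12:110845020-110850870_F had its brightest probe above background on the control array alone, with 87.5 and 15.1 (5.52-fold lower by the plain ratio). Its measured probe read 29.1 and 29.8, a log2 ratio of 0.11. The remaining regions had no probe above background. The 3 probes of Meg3 stood at -1.14, -0.66 and -0.65 and the 2 of Mirg at -1.17 and -0.99.

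The same interval was designed on both strands in 1067 cases. Both strands were measured in 429 of these (40.2%), the forward strand alone in 215, the reverse alone in 237 and neither in 186. Regions of such intervals were measured more often than regions drawn on 1 strand, 61.4% against 43.9%, and also at an equal number of probes: of regions with 3 probes, 60.3% of 214 against 46.3% of 1597. Where both strands were measured, their ratios showed no correlation (Pearson r -0.02, Spearman rho -0.0037, n = 429 intervals on the same arrays). Of the 858 regions in these intervals, 17 (1.98%) passed 2-fold, beside 1.67% of all measured regions. They lay in 17 different intervals, from which nothing is read at such shares.

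The brightest pair of strands was chr12:73838608-73862621. The brightest reverse probe read 105190 on the control and 101741 on the C26 array, and a forward probe over the same letters read 233 and 232. They share 47 bases as reverse complements, in capitals.
chr12:73838608-73862621_R probe 1: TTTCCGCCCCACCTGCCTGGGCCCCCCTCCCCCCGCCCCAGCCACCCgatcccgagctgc
chr12:73838608-73862621_F probe 2: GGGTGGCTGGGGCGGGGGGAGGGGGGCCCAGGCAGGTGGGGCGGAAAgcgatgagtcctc
Another forward probe just beside them read 83398 and 76334, and the ratios of these probes were 0.02, 0.07 and -0.06. The second brightest pair, chr5:34696192-34722842, read 23049 and 21778 on the forward strand and 4882 and 4418 on the reverse, with ratios of -0.01 and -0.07. Strands differed most in the intervals of chr5:122982442-123000053, at 2.34 forward and -0.15 reverse, and of chr3:40439525-40509975, at -1.87 forward and 0.43 reverse. In both, the strand past 2-fold is one whose call rests on 1 probe.

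The ratio of a region was set against that of the nearest measured coding probe, which lay at a median distance of 39.1 kb over 2397 regions. On the same strand within 10 kb, the ratios went together weakly (Pearson r 0.27, Spearman rho 0.25, n = 288 regions), and 176 of the 288 had the sign of their neighbour. Without the 2 pairs in which both passed 2-fold, r was 0.20. With the stricter filter on dim probes, r was 0.40 over 197 regions. Within 1 kb it was 0.43 over 50 regions, 38 of them of the same sign, and 0.35 over the 36 whose probes neither overlapped nor shared a sequence with a coding probe. From 10 to 50 kb r was 0.04 (n = 442) and beyond 50 kb 0.03 (n = 561). On the opposite strand it was 0.09 within 10 kb (n = 189) 0.02 from 10 to 50 kb (n = 441) and again 0.09 beyond 50 kb (n = 476).

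The same measure between neighbouring coding genes was 0.23 within 10 kb on the same strand (n = 934) and 0.17 from 10 to 50 kb (n = 2730). All these points share both arrays, so the correlations describe the pair of arrays, not the conditions. Whether a probe close to a gene on its strand reads the transcript of that gene was not tested.

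**Figure D5:**
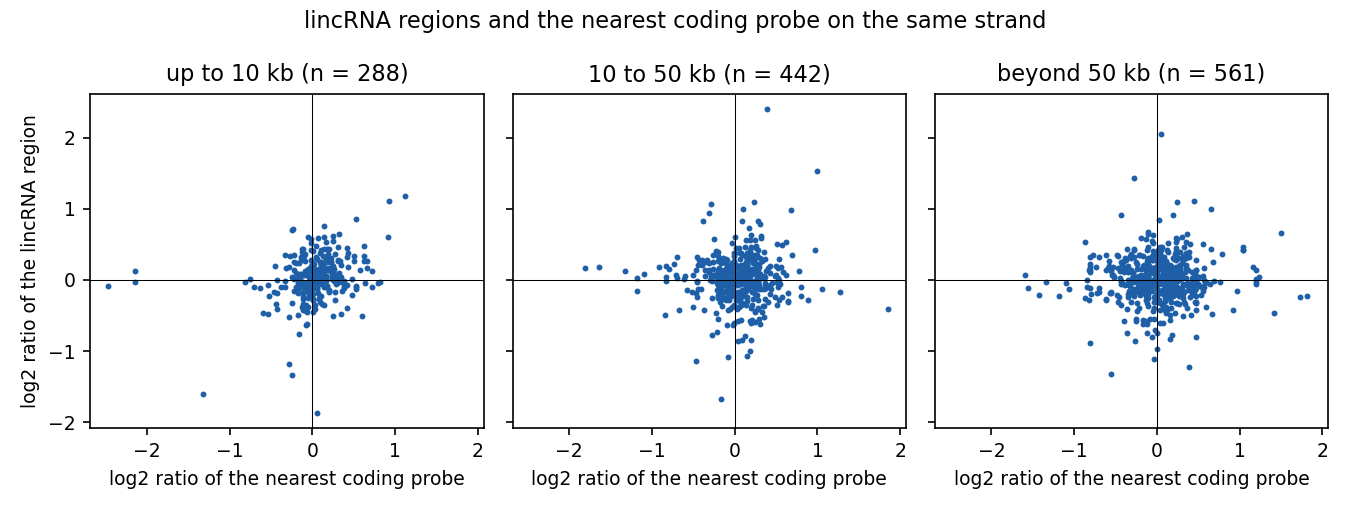
log2 ratio of the lincRNA region (vertical axis) against that of the nearest measured coding probe on the same strand (horizontal axis), by distance between the probes. Within 10 kb the 288 points lean upward (r 0.27), while those at 10 to 50 kb and beyond show no lean (r 0.04 and 0.03).

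Of the 24 regions within 50 kb of a coding probe past 2-fold, 10 had its sign and 2 (8.33%) also passed 2-fold in that direction, beside 1.67% of all measured regions. Within 1.5-fold lay 20 of the 24 (83.3%), beside 92.8% of all. Several of the 24 shared a neighbouring gene (Foxo6, Bcl2a1d or Cnksr3), so they are not separate cases. Each of the 2 that passed 2-fold had 1 measured probe. The first was the region beside Tet1 described above. The second was chr10:3231337-3231802_F, at 1.18, with Cnksr3 at 1.11 on the same strand at 4342 bases, while the reverse region chr10:3227840-3233588_R beside it stood at -0.12. Short of 2-fold were chr15:38205154-38206196_F, at 0.97, near Klf10, a TGF-beta inducible factor, at 1.22, and chr3:145313275-145315057_F, at 0.71, near Cyr61, a matricellular protein, at 1.39, both on the opposite strand. Several others stood near 0 or on the other side of it. The region nearest to Egr3, an immediate early gene at -2.47, stood at -0.08, those nearest to Foxo6, a forkhead factor, at -0.23 to 0.17, that nearest to Cdkn1a, a cell cycle inhibitor at 1.85, at -0.41, and that nearest to Nfil3, a clock output factor at 1.81, at -0.17.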

How the data were processed

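The members, lists and rules were chosen with earlier results of these data known. Per the labels, total RNA was amplified, labelled with Cy3 and hybridised to 1 array per group. The values in the deposited scanner files are linear spot intensities, made per the file headers by Agilent Feature Extraction 10.7.1.1 with background subtraction, detrending and a surrogate for low spots; the submitters' processing notes list version 9.5.1.1. A surrogate stood for 46.0% of lincRNA probes on the control and 36.1% on the C26 array. The authors also deposited a table of 1 intensity per probe and array, which served as an alternative. How it was made, the sources used here do not give. Its results were nearly those of quantile normalization, with 21 regions higher and 21 lower in each and medians of -0.0040 and -0.0045. It therefore adds little as a separate scaling. The genome build is mm9, per the file headers. Array signals hold no counts, so the number of arrays limits the precision, and intervals cover counting error over probes only.

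Outlier spots were left out and the spots of a probe averaged on the log2 scale. Each array's 75th percentile of log2 processed signal over non-control probes was subtracted, and the log2 ratio is C26 minus control. The brightest probe stands for a region; above background means well above background in the scanner's call. Genes keep the names in the files. Named regions are the 8 highest and 8 lowest ratios, the 5 largest bounds each way, the 6 brightest, examples of disagreement between probes or strands (up to 4, the largest or brightest), their nearest measured coding probes, and the 3 highest, lowest and brightest known RNAs; regions of chromosome 18 are not reported here. Alternatives were median scaling, the 75th percentile over probes above background on both arrays, quantile normalization, loess (span 0.3), normexp (offset 50), the deposited table, the mean over probes, the filter on dim probes, thresholds of 1.5-fold and 3-fold, and 20 bins or none. No test was run. The computations were checked on simulated data and used Python 3.11.15, numpy 2.4.6, pandas 2.3.3, scipy 1.17.1, matplotlib 3.10.9, and R 4.3.3 with limma 3.58.1.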

Additional observations from a re-analysis of the deposited data

How the results depend on the processing

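No paired analysis was possible because each group has 1 array. The counts of regions at least 2-fold higher and lower, 21 and 19, were 20 or 21 and 21 to 23 under the 5 other scalings without normexp, and 19 and 19 with the mean over the probes of a region. They were 5 and 3 with normexp, 306 and 230 where dim probes were kept, 12 and 8 with the stricter filter (a signal of at least 50 on both arrays), 93 and 81 at 1.5-fold and 4 and 6 at 3-fold. These are counts of 4621 regions where dim probes were kept, of 1664 with the stricter filter, and of 2401 with normexp and at both thresholds. The share over all names was taken in the main setting alone, so nothing is read from these counts beside the whole array. Chosen after seeing the data, counting every measured probe gave 39 and 46, asking all of at least 2 measured probes to pass gave 2 and 0, and leaving out probes over 60% GC gave 20 and 19. The filters and thresholds change what is counted; the cause of the normexp counts was not tested. The higher share of calls was 52.5%, 46.5% to 50% under those 5 scalings and 62.5% with normexp.

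The median log2 ratio of the regions, 0.02, was -0.026 with median scaling, -0.041 with the 75th percentile over measured probes, -0.0045 with quantile normalization, -0.021 with loess, -0.0040 with the deposited table and 0.0054 with no filter. The difference from coding probes of like signal, -1.41 percentage points, was below 0 in every alternative run. It was -0.47 with normexp, -1.18 with dim probes kept, -0.97 with the stricter filter, -5.47 at 1.5-fold and -0.32 at 3-fold. Regions above background on the control array alone were 77, or 118 with the scanner's weaker call of a positive and significant spot. The correlation with the nearest coding probe within 10 kb on the same strand, 0.27, was 0.40 with the stricter filter; the cause was not tested. Of the 17 regions past 2-fold checked one by one, none reversed under the 6 scalings; 11 were no longer past 2-fold with normexp, and the other 5 scalings kept every call. The spread between animals is unknown with 1 array in each group, and below a signal of about 50 ratios rest on spots close to background.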
